A study of Drosophila melanogaster with 4 samples.

Results

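Trimethylation of histone H3 at lysine 27 (H3K27me3) was mapped in whole Oregon-R larvae of the third instar by chromatin immunoprecipitation followed by sequencing. The flies were Drosophila melanogaster of wild type genotype, from the strain named Oregon-R-modENCODE in the labels. The series had 2 ChIP libraries, made with a mouse monoclonal Abcam antibody, and 2 libraries of input DNA, which enter no result here. It had 1 condition, and the labels do not say whether the ChIP replicates came from separate collections of larvae. The clusters described here are narrow regions of enrichment that lay beside broad ones. They are the clusters of the combined list, a deposited list for the whole series, that were under 5 kb wide, did not overlap both ChIP replicate lists and had an edge within 20 kb of the edge of a combined cluster of 10 kb or more. Of 4792 combined clusters on 2L, 2R, 3L, 3R, X and 4, 511 met this rule and are called flanking clusters. They lay around 190 of the 293 broad clusters and made up 930.8 kb, 4.48% of the sequence in combined clusters on these arms. The 3387 narrow clusters that met the other criteria but lay further away are called distant clusters.

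H3K27me3 is placed by Polycomb repressive complex 2, whose catalytic subunit in flies is Enhancer of zeste, and is bound by the chromodomain protein Polycomb of complex 1. In flies the complexes are recruited to short DNA elements, the Polycomb response elements, and the mark spreads from them over domains that can hold many genes, most of them regulators of development that are silenced. At the border of such a domain the mark falls off towards active or unmarked chromatin. In whole larvae many tissues are mixed, and a mark on few cells cannot be told apart from a weak mark on all of them.

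The width, the overlap with the replicate lists and the distance all come from the enrichment itself, so the members were chosen by these measured values, every value of the combined list below is a description and none was tested. The last members inside the distance limit lay at 19.84, 19.86 and 19.91 kb, with scores of 0.472, 0.257 and 0.461. The first clusters outside it lay at 20.03, 20.05 and 20.06 kb, with scores of 0.405, 0.627 and 0.607. The widest members had 4881, 4828 and 4798 bp, and the narrowest wider clusters in the same flanks, also not in both lists, had 5070, 5239 and 5242 bp. The narrowest broad clusters had 10015, 10024 and 10028 bp, and the widest that fell short had 9949, 9805 and 9757 bp. Coordinates are those of FlyBase release 5. The genes at these positions were not determined, since the gene table at hand belongs to another release.

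Narrow clusters were denser beside broad clusters than elsewhere, and most dense right at their edges. The flanks held 66.5 flanking clusters per Mb of open sequence, against 34.5 distant clusters per Mb beyond 20 kb, a ratio of 1.93. Open sequence is the sequence outside broad clusters and outside combined clusters of other kinds. Each cluster was placed by its base nearest to a broad edge. By distance, the density was 135 per Mb in the first kb (66 clusters), 67.4 at 1 to 2 kb (29 clusters), 75.3 at 2 to 5 kb (85 clusters), 68.7 at 5 to 10 kb (130 clusters) and 53.7 at 10 to 20 kb (201 clusters). Beyond the limit the decline went on without a step, with 45.3 per Mb at 20 to 50 kb, 37.4 at 50 to 100 kb, 34.2 at 100 to 200 kb and 31.7 further out. The 20 kb limit therefore cuts a gradual decline and is not a border in these data. Within the first kb, 19 clusters lay within 100 bp of the broad edge, 19 at 100 to 300 bp and 28 at 300 bp to 1 kb.

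Measured as covered sequence the peak lay further out. Flanking and distant clusters covered 9.53% of open sequence in the first kb, 16.7% at 1 to 2 kb, 16.1% at 2 to 5 kb, 12.9% at 5 to 10 kb, 9.57% at 10 to 20 kb and 4.90% beyond 200 kb. Over the whole flank 11.7% was covered, against 5.47% beyond it. The density counts only the base of a cluster nearest to the edge, and the covered share counts all its bases.

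**Figure D1:**
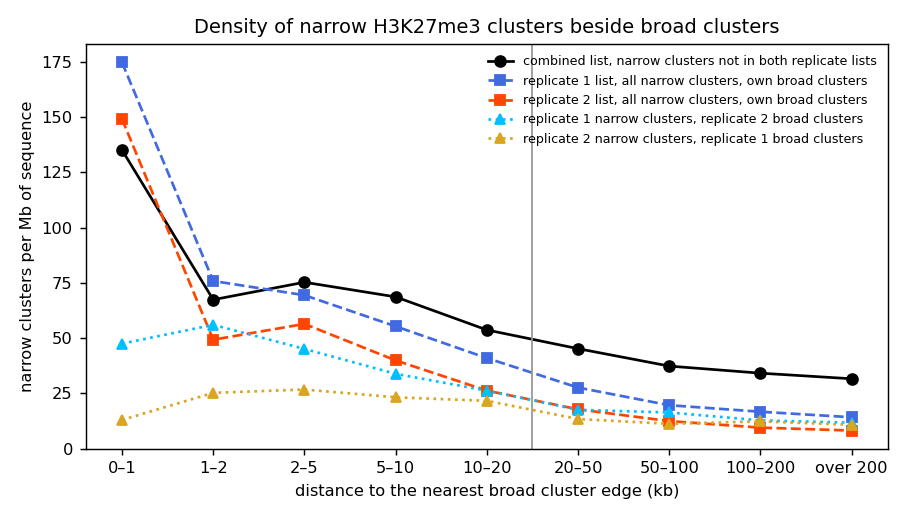
Narrow clusters per Mb of sequence (vertical axis) by distance to the nearest broad cluster edge in kb (horizontal axis, bins of unequal width), for the combined list (black), for all narrow clusters of each replicate list around its own broad clusters (squares) and for those outside the broad clusters of the other replicate, by distance to them (triangles). The vertical line marks 20 kb. Each list has its highest density in the first kb around its own broad clusters, at 135, 175 and 149 per Mb, and neither line of triangles shows that peak.

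The same gradient was present in each replicate list taken alone, where all clusters under 5 kb were counted around that list's own clusters of 10 kb or more. Replicate 1 had 59.3 narrow clusters per Mb within 20 kb, against 16.3 further away. Replicate 2 had 43.2 per Mb within 20 kb, against 10.0 further away. The means were 51.3 ± 11.4 per Mb within 20 kb and 13.1 ± 4.42 per Mb further away (SD, n = 2), a difference larger than the spread between the lists. The ratio was 3.65 in replicate 1 and 4.31 in replicate 2. In the first kb the replicates had 175 and 149 narrow clusters per Mb, from 67 and 69 clusters.

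Across lists, narrow clusters of one replicate were placed by their distance to the broad clusters of the other. Of the 2107 narrow replicate 1 clusters, 497 overlapped a broad replicate 2 cluster and were left out, as were 3 of the 1356 narrow replicate 2 clusters, so the densities are of the 1610 and 1353 clusters outside. Among these the gradient was shallower than around own broad clusters and had no peak at the edge. Narrow replicate 1 clusters had 34.2 per Mb within 20 kb of a broad replicate 2 cluster, against 13.2 further away, a ratio of 2.59. Narrow replicate 2 clusters had 22.6 per Mb within 20 kb of a broad replicate 1 cluster, against 11.4 further away, a ratio of 1.99. In the first kb these densities were 47.5 and 13.0 per Mb, from 22 and 5 clusters, below those at 1 to 2 kb, which were 56.0 and 25.3 per Mb.

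The flanking clusters had mostly replicate 2 behind them where they had any replicate. The 2 lists differ in make-up. On these arms replicate 2 covered 15.0 Mb with 1781 clusters, 252 of them of 10 kb or more. Replicate 1 covered 12.7 Mb with 2476 clusters, 214 of them of 10 kb or more. How far this bears on the shares was not tested. Of the 511, 181 overlapped the replicate 2 list alone, 35.4% (95% Wilson interval 31.4% to 39.7%), against 515 of 3387 distant clusters, 15.2% (14.0% to 16.5%). Replicate 1 alone was overlapped by 61 flanking clusters, 11.9% (9.41% to 15.0%), against 653 distant clusters, 19.3% (18.0% to 20.6%). Neither list was overlapped by 269 flanking clusters, 52.6% (48.3% to 56.9%), against 2219 distant clusters, 65.5% (63.9% to 67.1%). Support by exactly 1 replicate list was thus 47.4% (43.1% to 51.7%) among flanking clusters and 34.5% (32.9% to 36.1%) among distant ones. Over all 3898 narrow clusters of this kind, 36.2% overlapped exactly 1 list, 17.9% replicate 2 alone and 18.3% replicate 1 alone. Overlap means at least 1 bp, and the intervals reflect counting error alone, with each cluster taken as a separate observation.

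Among clusters not in both lists, the contrast between the replicates was widest close to the broad edge. Leaving out clusters in both lists lowers the replicate 1 share where replicate 2 clusters are common. Shares with them put back are given below for the whole flank only, so that part of the contrast cannot be told apart by distance. In the first kb 41 of 66 clusters overlapped replicate 2 alone, 62.1% (50.1% to 72.9%), and 2 overlapped replicate 1 alone, 3.03% (0.835% to 10.4%). The replicate 2 share was 31.0% at 1 to 2 kb, 43.5% at 2 to 5 kb, 40.8% at 5 to 10 kb, 20.4% at 10 to 20 kb, 22.0% at 20 to 50 kb and 13.4% beyond 200 kb. The replicate 1 share was 13.8%, 11.8%, 10.8%, 15.4% and 18.3% over the same distances from 1 to 50 kb, and 19.1% beyond 200 kb. The order of the shares changed at 50 to 100 kb, with 15.8% for replicate 2 alone and 19.5% for replicate 1 alone.

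**Figure D2:**
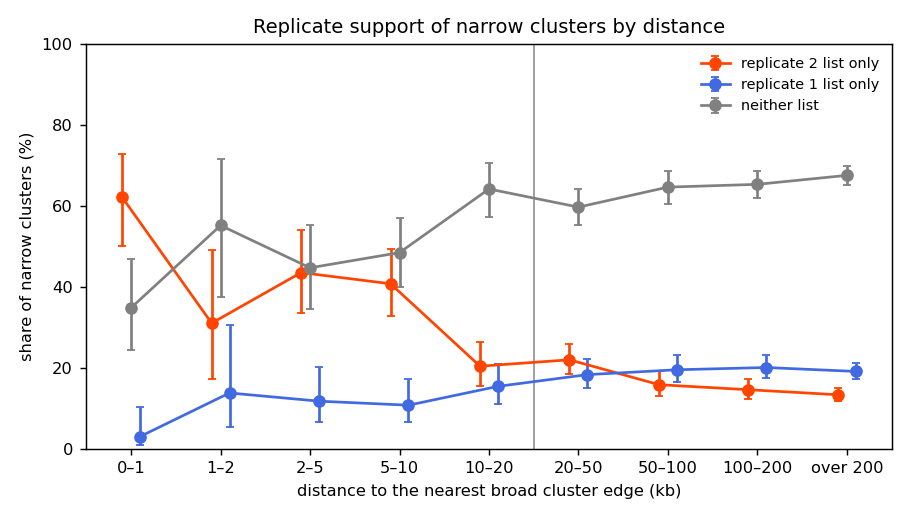
Share of narrow combined clusters (vertical axis, percent) that overlap the replicate 2 list alone, the replicate 1 list alone or neither, by distance to the nearest broad edge in kb (horizontal axis). Clusters found in both lists are left out. Points are shares, bars are 95% Wilson intervals and the vertical line marks 20 kb. The replicate 2 share is 62.1% in the first kb and 13.4% beyond 200 kb, and the replicate 1 share is 3.03% and 19.1% at the same distances.

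Expressed as density, clusters on replicate 2 alone made up 57.2% of the difference of 32.0 per Mb between flanks and sequence further away. They had 23.6 per Mb in the flanks, against 5.24 per Mb further away, a ratio of 4.49. Clusters on replicate 1 alone had 7.94 per Mb in the flanks, against 6.65 per Mb further away, a ratio of 1.19. Clusters in neither list had 35.0 per Mb in the flanks, against 22.6 per Mb further away, a ratio of 1.55. In the first kb the clusters on replicate 2 alone had 83.9 per Mb, those in neither list 47.1 per Mb and those on replicate 1 alone 4.09 per Mb.

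Because the rule removes clusters found in both lists, it lowers the replicate 1 share wherever replicate 2 clusters are common. With the clusters found in both lists put back, there were 615 narrow clusters in the flanks and 3625 further away. Replicate 2 then overlapped 46.3% (42.4% to 50.3%) in the flanks, against 20.8% (19.5% to 22.1%) further away, a difference of 25.6 percentage points. Replicate 1 overlapped 26.8% (23.5% to 30.5%) in the flanks, against 24.6% (23.2% to 26.0%) further away, a difference of 2.25 percentage points. The excess of replicate 2 in the flanks was therefore present without that part of the rule, and the shortage of replicate 1 was not.

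**Figure D3:**
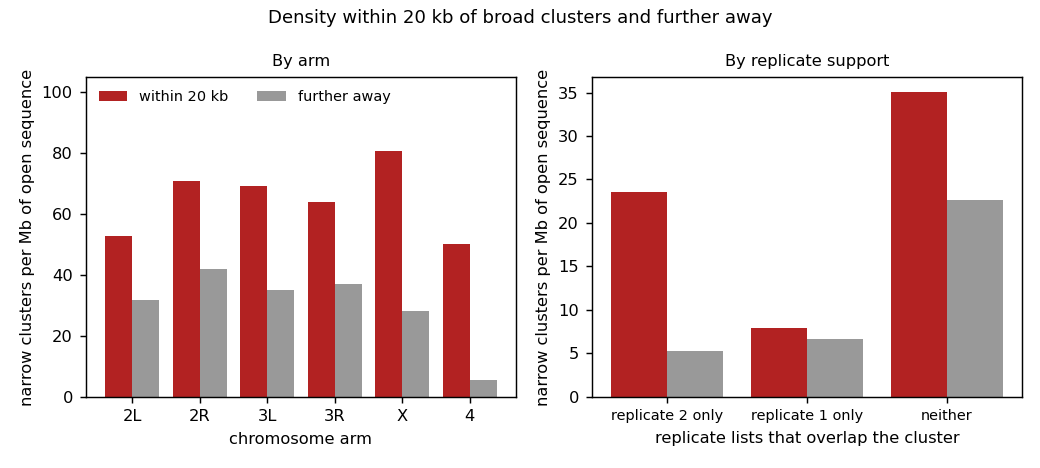
Narrow clusters per Mb of open sequence (vertical axes, from 0) within 20 kb of a broad cluster (red) and further away (grey), by chromosome arm (left) and by the replicate lists that overlap the cluster (right). The red bar is the higher on all 6 arms and in all 3 support classes, and among the support classes the ratio is widest, at 4.49, for replicate 2 alone.

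Width bears on support, since no replicate cluster was narrower than 1301 bp while the combined list began at 1001 bp. Flanking clusters had a median width of 1601 bp (quartiles 1220 and 2063 bp), against 1405 bp for distant clusters (1138 and 1802 bp). The share with 3 kb or more was 10.6% among flanking clusters and 4.02% among distant ones. At 1001 to 1300 bp, 5.62% of 160 flanking clusters overlapped replicate 2 alone, against 2.44% of 1437 distant ones. At 1301 to 1999 bp the shares were 37.5% of 216 flanking and 16.0% of 1428 distant clusters. At 2000 to 2999 bp they were 56.8% of 81 flanking and 43.8% of 386 distant clusters, and at 3000 to 4999 bp 83.3% of 54 flanking and 60.3% of 136 distant clusters. The replicate 2 share was higher in the flanks in all 4 width classes, and the replicate 1 share was lower in all 4. Support by exactly 1 list did not keep its direction: it differed by -2.18, 11.6, -1.12 and 11.0 percentage points, flanking minus distant, from the narrowest class to the widest.

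Few members with a single replicate lay on a replicate cluster that was joined to the broad region. The 269 members in neither list have no replicate cluster over them and could not be counted. Narrow clusters that both lists overlap had been removed by the rule. In 11 of the 242 clusters with a single replicate, 4.55% (2.56% to 7.95%), a replicate cluster over them also reached the neighbouring broad cluster. All 11 were replicate 2 clusters, and 10 of them belonged to members in the first kb, 24.4% (13.8% to 39.3%) of the 41 there with replicate 2 alone. The 170 other members on replicate 2 alone lay on replicate 2 clusters with a median width of 1816 bp, and the 61 members on replicate 1 alone on replicate 1 clusters with a median width of 1580 bp. Over all narrow clusters of those lists the medians were 1899.5 bp in replicate 2 and 1684 bp in replicate 1. The replicate cluster covered a median 90.9% of a member on replicate 2 alone and 87.1% of a member on replicate 1 alone. For distant clusters the medians were 87.1% on replicate 2 alone and 91.5% on replicate 1 alone. The 181 members rested on 180 distinct replicate 2 clusters, of which 5 carried more than 1 member, so a few members share their support.

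The joined cases show how the lists cut the same region differently. At 2L 6007794 to 6011160, a member of 3367 bp and score 0.467 stood 41 bp left of a broad cluster of 12.3 kb. Replicate 2 covered 95.1% of it with a single cluster of 15484 bp that ran on into the broad region, and replicate 1 covered none of it. At 3L 11029787 to 11031487, a member of 1701 bp stood 105 bp right of a broad cluster of 137.1 kb. A single replicate 2 cluster of 114291 bp overlapped the member and part of the broad cluster. On chromosome 4, from 1128376 to 1130829, a member of 2454 bp stood 345 bp from a broad cluster of 22.5 kb, with 90.9% covered by a replicate 2 cluster of 25177 bp. These 3 were chosen after their values were seen.

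The gap between a member and its broad neighbour was free of replicate 1 in the first kb. All 66 members there adjoined the broad cluster, across a median gap of 243.5 bp. No other combined cluster could lie between, since none was narrower than 1001 bp. Replicate 1 covered no base of the gap in 66 of 66 cases. Replicate 2 covered some of it in 40 and all of it in 11. The rule bears on these counts, since it removes narrow clusters that both lists overlap. The 41 members here on replicate 2 alone could thus have no replicate 1 cluster over them. Among the 269 members in neither list, the nearest replicate 2 cluster lay at a median of 3207 bp (quartiles 1048 and 7409 bp) and the nearest replicate 1 cluster at 5195 bp (2463 and 10344 bp). Of these 269 members, 66 lay within 1 kb of replicate 2 and 27 within 1 kb of replicate 1. The rule sets part of this, since all members lie within 20 kb of a broad cluster. Broad clusters with members were covered to a median of 82.7% by replicate 1 and 99.1% by replicate 2. For the 103 broad clusters without members the medians were 89.6% and 99.5%, so replicate 1 covered less in both groups.

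The nearest cluster of any width lay at a median of 884 bp from a flanking cluster (quartiles 284 and 2328 bp). The rule fixes part of this closeness, since a broad cluster counts as a neighbour. It was another narrow cluster of the same kind for 311 members (60.9%), a broad cluster for 116 (22.7%), a cluster of 5 to 10 kb for 45 (8.81%) and a narrow cluster found in both lists for 39 (7.63%). Clusters of the same kind made up 3898 of all 4792 combined clusters on these arms. For 196 members (38.4%) the broad cluster was the next cluster along the arm. Broad clusters lay within 20 kb on both sides of 51 members (9.98%). The members were spread over both sides of their broad cluster, 274 at higher and 237 at lower coordinates.

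All 6 arms had more narrow clusters per Mb in the flanks than further away. The X had 80.6 per Mb in the flanks, against 28.1 further away, and the highest ratio of the large arms, 2.87. The ratio was 1.98 on 3L (69.0 against 34.9 per Mb), 1.72 on 3R (63.8 against 37.1), 1.69 on 2R (70.7 against 41.9) and 1.66 on 2L (52.8 against 31.8). Chromosome 4, a small chromosome rich in heterochromatin, had 50.0 per Mb in the flanks, against 5.35 further away, from 11 and 5 clusters. Replicate 2 alone overlapped 50.0% of flanking clusters on 2L, against 19.0% of distant ones. On 2R, which had the smallest contrast, it overlapped 23.5% of flanking and 14.8% of distant clusters. On 3L, 3R, X and 4 the flanking shares were 33.7%, 36.5%, 34.9% and 54.5%, against 16.1%, 13.0%, 14.0% and 0% of distant clusters.

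The members were unevenly spread over the broad clusters. Of 293 broad clusters, 190 had at least 1 member (64.8%, 59.2% to 70.1%), and 64 had members on both sides. Of 586 edges, 332 had none, 126 had 1, 62 had 2 and 66 had 3 or more. Broad clusters of 10 to 20 kb had 92.7 members per Mb of open flank, those of 20 to 50 kb 44.6 and those of 50 kb or more 58.3. The 98 broad clusters with the lowest scores had 109 members per Mb, the middle 97 had 52.6 and the 98 with the highest scores had 45.1. Coverage by replicate 1 went the same way. The 98 broad clusters that replicate 1 covered by at most 71.4% had 119 members per Mb, the next 97 had 46.5 and the 98 covered by over 91.9% had 43.4. How score, width and replicate 1 coverage of the broad clusters relate to each other was not measured, and they were not separated.

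The 2 widest broad clusters had few members, which does not hold for wide clusters in general. Those of 50 kb or more had 58.3 members per Mb, against 44.6 for those of 20 to 50 kb. Each of the 2 had another broad cluster close on its left, ending at 2645167 and at 12583137, which limited the open flank there. The widest, 241.6 kb on 3R from 2648461 to 2890077, had 0. The next, 223.3 kb on 3R from 12587224 to 12810521, had 1, a cluster of 1603 bp from 12812731 to 12814333 at 2210 bp from the edge. Its score of 0.215 ranked 510 of 511, and replicate 2 covered 98.6% of it and replicate 1 none.

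The broad clusters with the most members had 11, 11, 11, 10 and 9. The first was 81.3 kb wide on X from 18133026 to 18214303, with a score of 1.97, and both replicates covered it almost fully, 99.7% in replicate 1 and 99.6% in replicate 2. Its 11 members, 7 on the left and 4 on the right, overlapped neither replicate list. Their scores ran between 0.402 and 0.653. The other 4 were narrower, with low scores and little replicate 1 coverage. On 3L from 18283362 to 18302939 a broad cluster of 19.6 kb and score 0.634 was covered 29.0% by replicate 1 and 92.0% by replicate 2. On X from 279824 to 292963 a broad cluster of 13.1 kb was covered 12.9% by replicate 1 and 81.7% by replicate 2. On 3L from 22469435 to 22482689 one of 13.3 kb was covered 38.9% by replicate 1 and 80.6% by replicate 2, and on 2R from 16044078 to 16060828 one of 16.8 kb was covered 18.3% by replicate 1 and 96.8% by replicate 2.

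Around the 13.1 kb cluster of X, 8 of 11 members overlapped replicate 2 and none overlapped replicate 1. The widest of them ran from 268167 to 272247, 4081 bp with a score of 0.506, and 94.0% of it was covered in replicate 2. The closest stood 68 bp to the right, from 293031 to 294807, and 2 replicate 2 clusters overlapped it. The one of 10917 bp that reached into the broad cluster covered 6.75% of its length, and both together covered 91.8%. Around the 19.6 kb cluster of 3L, 3 members on the left, at 466, 2926 and 5213 bp, overlapped replicate 2, with 91.8%, 100% and 60.5% of their length covered. A further member on the right, at 14618 bp, was 68.6% covered. The other 7 there overlapped neither list.

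**Figure D4:**
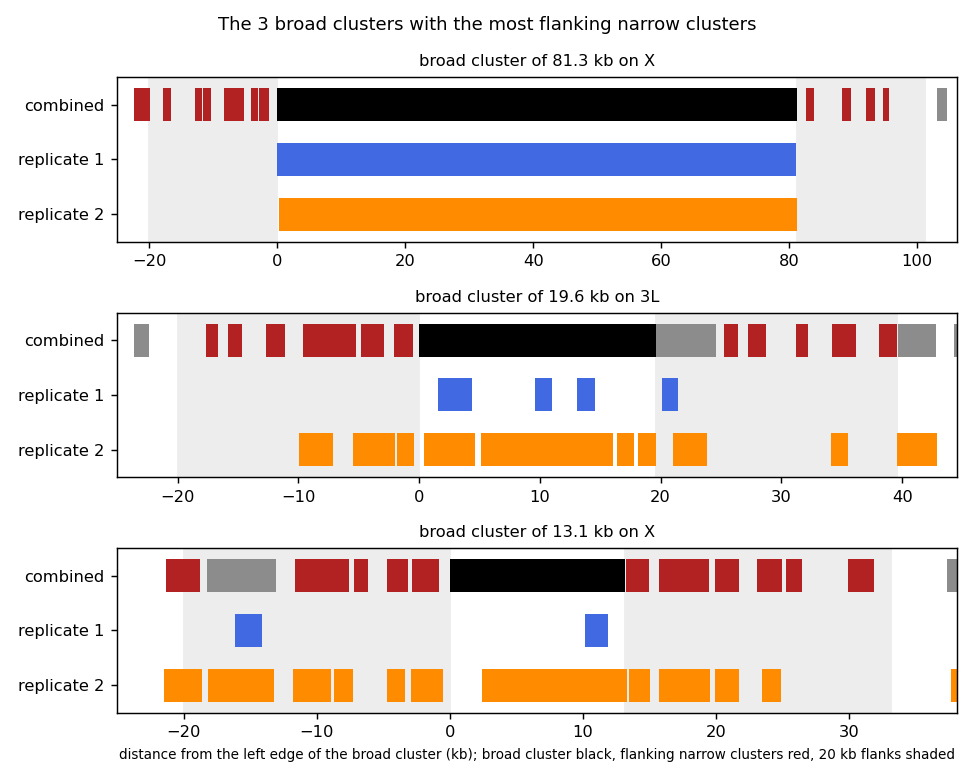
Clusters of the combined list, replicate 1 and replicate 2 (rows from top) around the 3 broad clusters with the most flanking clusters, by distance in kb from the left edge of the broad cluster (horizontal axis). The broad cluster is black, flanking clusters are red, other combined clusters grey, replicate 1 blue and replicate 2 orange, and the 20 kb flanks are shaded. Replicate clusters stop at the edges of the 81.3 kb cluster on X, whose 11 members have none, while replicate 2 clusters underlie 8 of 11 members at the 13.1 kb cluster.

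The score of flanking clusters lay close to that of distant clusters and far below that of broad clusters. Its unit is not stated, so clusters are compared only inside a list. The means over the 2 replicate lists below take their scales as alike, which is not known. The median was 0.422 for flanking clusters (quartiles 0.371 and 0.471), against 0.432 for distant clusters (0.385 and 0.478), a difference of -0.0101. The same difference was 0 in the replicate 1 list and 0.00598 in the replicate 2 list on their own scales (mean 0.00299 ± 0.00423, SD, n = 2) around their own broad clusters. Across lists it was -0.00981 for narrow replicate 1 clusters and -0.0108 for narrow replicate 2 clusters (mean -0.0103 ± 0.000667, SD, n = 2). The difference was thus negative in the combined list and across lists, and 0 or positive within each replicate list. Narrow clusters found in both lists had a median of 0.523, clusters of 5 to 10 kb 0.569 and broad clusters 1.23. At or above the median score of the whole combined list, 0.449, were 177 flanking clusters, 34.6% (30.6% to 38.9%), against 1349 distant clusters, 39.8% (38.2% to 41.5%), with 39.1% over both together. By contrast 292 of the 293 broad clusters reached that score.

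Score hardly changed with distance inside the flank. The median was 0.409 in the first kb, 0.422 at 1 to 2 kb, 0.407 at 2 to 5 kb, 0.426 at 5 to 10 kb and 0.425 at 10 to 20 kb, and it was 0.436 beyond 200 kb. Over the 511 members the Spearman correlation of distance and score was 0.0727, and that of width and score 0.177. These are across clusters of 1 list that share libraries, and are given as descriptions. Members on a replicate 2 cluster that reached the broad cluster had a median score of 0.380, and the other members on replicate 2 alone had 0.432. Members on the X had a median of 0.483 and distant clusters of the X 0.493, both above the other large arms, where flanking medians lay between 0.400 and 0.412 and distant medians between 0.421 and 0.426. On all 6 arms the flanking median was the lower.

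**Figure D5:**
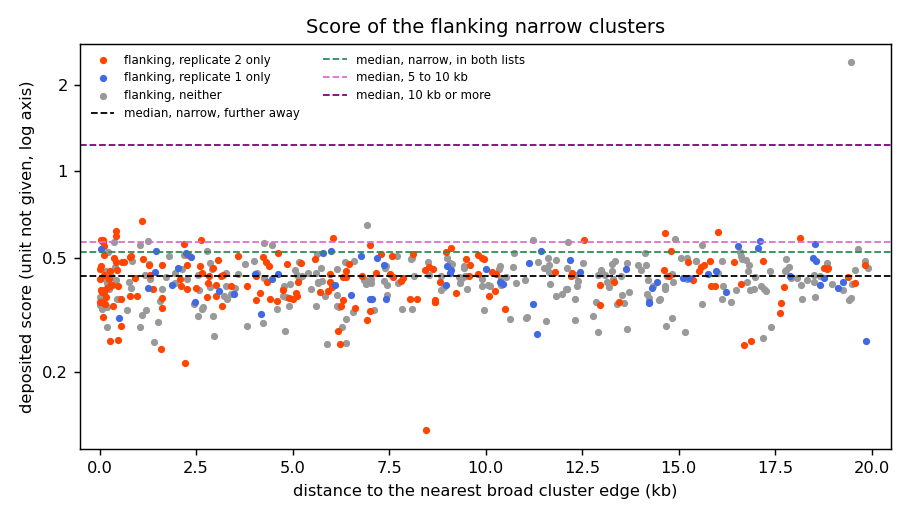
Deposited score of the 511 flanking clusters (vertical log axis, unit not given) by distance to the nearest broad edge in kb (horizontal axis), coloured by the replicate list that overlaps them. Dashed lines are medians of other classes of combined clusters. The points form a flat band around 0.422 at all distances, below the broad cluster median of 1.23, with 1 cluster at 2.39.

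A single member scored above the broad cluster median of 1.23. The lowest broad score was 0.444, so other members also lay in the broad range. Distant clusters had scores of up to 4.35. On 3R from 9804568 to 9805568, a cluster of 1001 bp, the narrowest width in the list, had a score of 2.39 at 19457 bp from a broad cluster, and neither replicate list came within 14.6 kb of it. The next scores were 0.670, 0.653, 0.621, 0.615, 0.611, 0.593 and 0.587. The second, 4379 bp on 3R from 18710068 to 18714446, was 85.0% covered by replicate 2 and stood 1085 bp from a broad cluster. The third, 1495 bp on X from 18221221 to 18222715, was one of the 11 members at the 81.3 kb cluster and in neither list. The other 5 lay on 2R from 15994128 to 15998626 and from 15958907 to 15962809, on X from 14013914 to 14016635 and from 15266381 to 15268546, and on 2L from 17253815 to 17256410. Replicate 2 alone overlapped each of these 5, with 63.6% to 99.8% of their length covered.

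Most of the widest members were on replicate 2 alone, near the share of their width class. At 3000 to 4999 bp that share was 83.3% of flanking and 60.3% of distant clusters. The 5 widest had 4881, 4828, 4798, 4774 and 4700 bp, and 4 of them were on replicate 2 alone, with 98.4%, 65.7%, 99.8% and 67.3% covered. The fifth, on 3R from 25432550 to 25437249, was on replicate 1 alone, with 28.3% covered. The 5 members nearest to a broad edge stood 2, 5, 8, 14 and 18 bp away, and 3 of them overlapped replicate 2 and none replicate 1. Over all 66 members of the first kb, 62.1% overlapped replicate 2 alone and 3.03% replicate 1 alone. The nearest, 1730 bp on 3R from 13475798 to 13477527, overlapped neither, with replicate 2 ending 49 bp and replicate 1 221 bp from it.

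Set beside the other clusters of the combined list, flanking positions were commonest for clusters with replicate 2 support and for wider clusters. Of the sequence outside broad clusters 8.02% lay within 20 kb of one. Within that distance lay 10.8% of 2488 narrow clusters in neither list (9.65% to 12.1%), 8.54% of 714 on replicate 1 alone (6.71% to 10.8%) and 26.0% of 696 on replicate 2 alone (22.9% to 29.4%). For narrow clusters found in both lists the share was 30.4% of 342 (25.8% to 35.5%), and for clusters of 5 to 10 kb 41.3% of 259 (35.5% to 47.4%).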

How the data were processed

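The files are 3 deposited lists of enriched regions, 1 for each ChIP library and 1 combined list. The genome is FlyBase release 5, per the file headers. Reads were handled with Bowtie 0.12.7, per the submitters' processing notes. No source used here gives the caller, its threshold, the use of input or the making of the combined list. Each region carries a score that the authors deposited without a unit, so clusters were compared by score only inside a list. Read depth is unknown.

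Regions on 6 arms were compared by their coordinates with scipy 1.17.1, pandas 2.3.3 and numpy 2.4.6 in Python 3.11.15, and plotted with matplotlib 3.10.9. Distance is the difference of the nearest edge coordinates. Overlap needed 1 bp. Shares carry 95% Wilson intervals. The interval code was checked on simulated lists. No test was run, because the rule used the same enrichment and the series has 1 condition.

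Named clusters are the 8 highest-scoring, 5 widest and 5 nearest members, those at the limits, and the members of the 2 widest broad clusters and of the 5 broad clusters with the most members, for which examples are given. Members, settings and this rule were chosen with earlier results of these data known. Planned gene lists were not placed, since on 5 of the 6 arms the gene table, from release 6, passes the arm length in the headers.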

Additional observations from a re-analysis of the deposited data

How the results depend on the processing

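The density ratio stayed above 1 under every setting tried. It was 1.43 with a broad minimum of 20 kb, 2.74 with one of 5 kb, 3.65 and 4.31 in the replicate 1 and replicate 2 lists alone, and 2.59 for narrow replicate 1 clusters outside broad replicate 2 clusters, by distance to these. Leaving out clusters between broad clusters on both sides gave 1.84, and leaving out those on a joined replicate cluster gave 1.89; both were chosen after seeing the data. With either replicate list left out it was 2.09, since all narrow clusters then count.

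The score difference, -0.0101, was not stable. It was 0.0202 at 3000 to 4999 bp and 0.00697 for clusters of 1301 bp or more, thus reversed, and -0.0260 at 1001 to 1300 bp, -0.0180 with a broad minimum of 20 kb, -0.0181 with a narrow maximum of 3 kb, -0.00428 with 50% overlap, -0.00236 at or above the median score and -0.00210 with clusters of both lists included or either list left out. The cause was not tested.

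The share of flanking clusters in a single list, 47.4%, was 54.8% with a 10 kb flank, 39.3% with clusters of both lists included, 41.6% with a narrow maximum of 3 kb, 52.5% at or above the median score and 64.4% at 1301 bp or more. With 1 list left out, all narrow clusters count and the share becomes that overlapping the remaining list. This was 46.3% without replicate 1 and 26.8% without replicate 2. The difference from distant clusters, 12.9 percentage points (8.29 to 17.5), was 20.3 with a 10 kb flank and 7.13 with clusters of both lists included. It was -2.18 at 1001 to 1300 bp and -1.12 at 2000 to 2999 bp. For overlap with the remaining list the difference was 25.6 without replicate 1 and 2.25 without replicate 2, so it lay mostly in the replicate 2 list.

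No paired analysis was possible because only ChIP lists are analysed, so groups are never set against each other. The depth behind the lists is unknown. The alternatives on gene lists were not run.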
